A study of Mus musculus with 9 samples.

Results

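The 6 genes described here are the core of the aryl hydrocarbon receptor pathway in mouse liver and were taken by gene symbol from the 57010 genes of the deposited tables. They are Ahr, which encodes the receptor, Arnt, its dimerization partner, Ahrr, its repressor, Cyp1a1 and Cyp1a2, the cytochrome P450 genes for which the pathway is best known, and Tiparp, a mono-ADP-ribosyltransferase that the receptor induces and that limits receptor activity. RNA was sequenced from liver of male BALB/c mice in 9 libraries, 3 in each of 3 groups. The CON livers had no treatment, the CPT livers had acute liver injury from injected cisplatin, and the AT3 livers carry the same injury label as CPT. The name AT3 is not spelled out in the sample labels, the series title names Atractylenolide III, and the sources used here give no dose, injection site, time or age. No label says whether the 3 libraries of a group came from separate animals, so a p-value here speaks only of spread among libraries, which may be technical.

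The aryl hydrocarbon receptor rests in the cytosol with the chaperone HSP90. A planar aromatic ligand sends it to the nucleus, where it pairs with ARNT and binds DNA at response elements that contain the letters GCGTG. In liver its best known targets are Cyp1a1, which is barely expressed without a ligand, and Cyp1a2, which hepatocytes near the central vein express constitutively and which metabolizes caffeine and arylamines.

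The annotation (GENCODE M21, GRCm38) places all 6 as protein-coding genes. Ahr (ENSMUSG00000019256) lies at chr12:35497974-35535038 on the minus strand and Arnt (ENSMUSG00000015522) at chr3:95434388-95497240 on the plus strand. Ahrr (ENSMUSG00000021575) lies at chr13:74211118-74292331 on the minus strand and Tiparp (ENSMUSG00000034640) at chr3:65528410-65555518 on the plus strand. Cyp1a1 (ENSMUSG00000032315) at chr9:57687928-57703824 on the plus strand and Cyp1a2 (ENSMUSG00000032310) at chr9:57676937-57683703 on the minus strand are head-to-head neighbours, with 4225 bases between the annotated genes. The longest open reading frames of the Cyp1a pair, of 1575 bases in Cyp1a1 and 1542 in Cyp1a2, were identical at 78.7% of 1528 aligned bases, and their transcripts share an identical run of 137 bases. Reads that lie wholly within such a run may be shared between the pair, and how the authors' counting treated them is not given in the sources, so the small counts of Cyp1a1 are uncertain.

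RefSeq (GRCm38.p6) gave the sequence around the gene start, 250 bases before to 50 after it, for 5 of the 6 genes, all but Ahr. The letters GCGTG, on either strand, were found 3 times in the window of Ahrr, 1 time each in those of Arnt, Cyp1a1 and Tiparp, and 0 times in that of Cyp1a2. Of 32851 such windows over all genes, 32.4% held the letters. The longer form TNGCGTG was found only in Ahrr, 1 time, and in 5.07% of all windows. A match is a description of the letters and not a measured binding site. The stretches just before the exon at each RefSeq start, none overlapping an annotated exon, are printed for the Cyp1a pair. They are also printed for Ahrr and Tiparp, which encode brakes on the receptor. Each runs 5′ to 3′ on the strand of its gene, with GCGTG, or CACGC where the match is on the opposite strand, in capitals. They cover chr9:57697363-57697612 (plus) for Cyp1a1, chr9:57683704-57683905 (minus) for Cyp1a2, chr13:74292332-74292581 (minus) for Ahrr and chr3:65528197-65528409 (plus) for Tiparp.
Cyp1a1: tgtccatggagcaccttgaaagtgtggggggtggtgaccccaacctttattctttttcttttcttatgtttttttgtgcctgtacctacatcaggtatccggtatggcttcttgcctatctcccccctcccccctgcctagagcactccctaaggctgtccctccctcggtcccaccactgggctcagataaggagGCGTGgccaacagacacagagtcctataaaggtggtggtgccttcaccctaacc
Cyp1a2: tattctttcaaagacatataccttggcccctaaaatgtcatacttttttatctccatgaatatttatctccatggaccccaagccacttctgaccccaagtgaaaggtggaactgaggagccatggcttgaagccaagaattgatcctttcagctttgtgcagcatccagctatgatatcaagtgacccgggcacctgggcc
Ahrr: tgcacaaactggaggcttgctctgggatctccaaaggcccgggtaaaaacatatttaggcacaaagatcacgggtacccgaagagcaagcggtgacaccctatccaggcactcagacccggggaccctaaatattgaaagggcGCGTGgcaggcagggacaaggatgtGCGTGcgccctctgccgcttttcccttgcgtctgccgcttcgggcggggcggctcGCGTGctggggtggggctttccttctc
Tiparp: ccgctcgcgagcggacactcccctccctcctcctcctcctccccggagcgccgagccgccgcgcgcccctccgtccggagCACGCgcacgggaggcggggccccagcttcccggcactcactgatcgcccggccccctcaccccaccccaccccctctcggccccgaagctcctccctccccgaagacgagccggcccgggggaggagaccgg
The stretch of Cyp1a1 lies inside the annotated gene, whose GENCODE span begins further upstream. Its match begins 54 bases before the RefSeq start, and the only match in Tiparp 170 bases before it. In Ahrr the matches begin 107, 82 and 27 bases before the start.

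Library totals ran from 21485021 to 28480479 estimated counts. Genes were tested with edgeR on these counts, and called at an adjusted p under 0.05 over 13686 genes. Levels are given as CPM, counts divided by the TMM-scaled library size and put on a common total. The share of mitochondrially encoded genes was between 25.8% and 36.8% of counts in CON libraries, between 11.2% and 16.3% in CPT and between 9.79% and 11.4% in AT3. The authors' TPM values, which are scaled to length and to a fixed total, moved with this: the median log2 difference of all tested genes between CPT and CON was -0.02 in the edgeR fit and 0.29 on the log2(TPM + 1) scale. Of the genes called between CPT and CON, 4107 were higher and 4219 lower in the edgeR fit, against 6631 higher and 1604 lower on the TPM scale. Between AT3 and CON the splits were 4312 higher and 4501 lower by edgeR and 7017 higher and 1698 lower on the TPM scale. Between AT3 and CPT edgeR called 337 genes higher and 304 lower, against 29 and 16 on the TPM scale. The AT3 against CPT count depended on single libraries, with 1341 genes called without CPT replicate 3, 384 and 233 without CPT replicates 1 and 2, and 183, 178 and 237 without AT3 replicates 1, 2 and 3. Hepatocyte markers (9 genes) summed to between 71573 and 75878 CPM in CON, between 58763 and 75818 in CPT and between 87187 and 94125 in AT3, so the defining markers of liver were present in every library.

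Cyp1a2 showed the deepest fall of the 6 genes between untreated and cisplatin-injured liver. Its level was 745, 649 and 717 CPM in the CON libraries, 18.0, 19.7 and 13.7 in CPT and 19.4, 12.7 and 21.8 in AT3. All 6 injured libraries lay far below the 3 controls, and the CPT and AT3 libraries overlapped. The means were 704 ± 49.3 CPM in CON (SD, n = 3), 17.2 ± 3.09 in CPT and 17.9 ± 4.72 in AT3. The log2 difference between CPT and CON was -5.36 ± 0.19 (SE), a 40.9-fold fall with an adjusted p of 7.06e-12 by edgeR. Only 44 of the 13686 tested genes fell further in this comparison. Between AT3 and CON the fall was 39.3-fold, with a log2 difference of -5.30 ± 0.19 and an edgeR adjusted p of 6.28e-12.

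In TPM, which allow levels of different genes to be compared, Cyp1a2 measured 248 ± 28.5 in CON, 9.12 ± 1.62 in CPT and 10.1 ± 2.33 in AT3. This was a 27.2-fold fall to CPT and a 24.5-fold fall to AT3. By mean TPM it ranked 236 among tested genes in untreated liver, above 98.3% of them, and 3693 in CPT and 3583 in AT3, above 73.0% and 73.8%. Cyp1a2 remained the most abundant of the 6 genes in every group. In bulk liver, fewer cells that express a gene and less RNA per cell cannot be told apart.

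**Figure D1:**
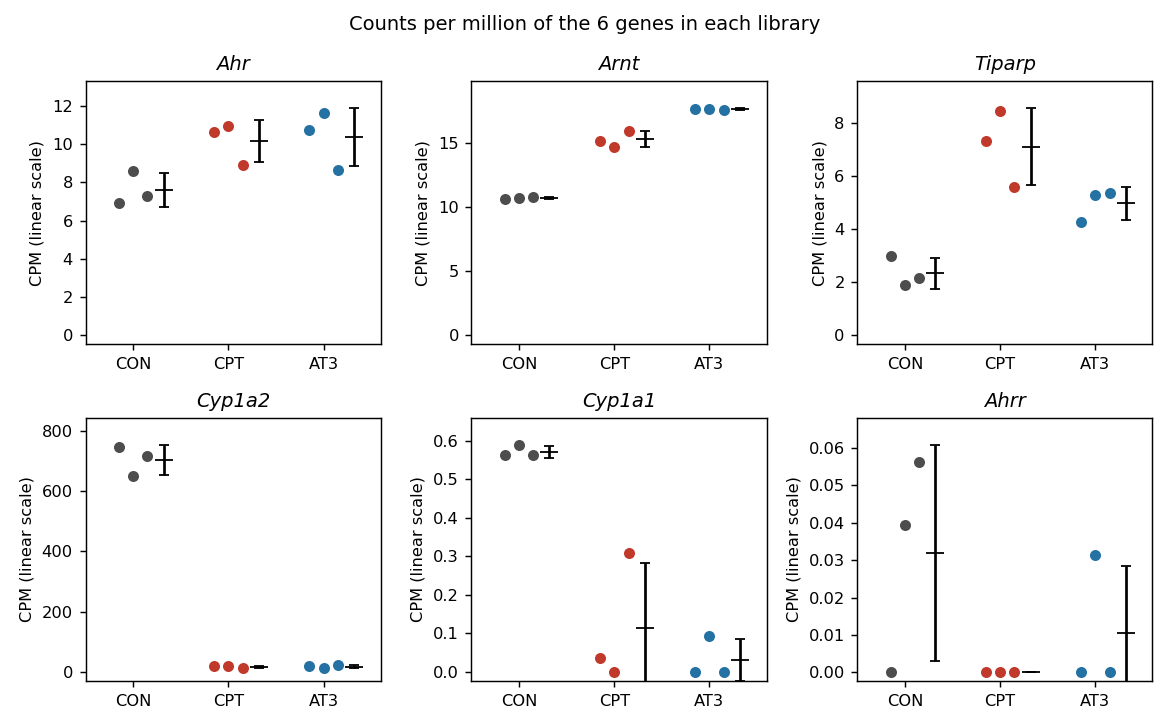
CPM (vertical axis, linear) of the 6 genes in each of the 9 libraries by group, with group mean ± SD as black marks (n = 3; the bars of Cyp1a1 and Ahrr are clipped just below 0). Cyp1a2 falls from 649 CPM or more in CON to 21.8 CPM or less in every CPT and AT3 library, while Ahr, Arnt and Tiparp lie higher in both injured groups than in CON.

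Cyp1a1, the inducible member of the pair, was close to the detection limit everywhere. It had 10, 15 and 10 counts in CON, 1, 0 and 8 in CPT, and 0, 3 and 0 in AT3. The 3 untreated libraries were the highest, and 8 of the 9 counts in CPT came from CPT replicate 3. In TPM the groups overlapped, with 0.12 in both CPT replicate 3 and CON replicate 3. In CPM the means were 0.571 ± 0.0152 in CON, 0.114 ± 0.168 in CPT and 0.0313 ± 0.0543 in AT3, where 3 counts correspond to 0.0934 to 0.169 CPM depending on the library. The log2 difference by edgeR was -2.38 ± 0.81 between CPT and CON and -3.93 ± 0.97 between AT3 and CON. Only the CON libraries reached 10 counts, so Cyp1a1 passed the low-count filter only through the group where it was highest, and its calls as lower are no independent evidence of a fall.

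The count rate of Cyp1a1 in CPT was 0.182 times that in CON, with an exact 95% counting interval of 0.0768 to 0.385. Without CPT replicate 3 the ratio was 0.0289 (0.000711 to 0.172), with a log2 difference of -4.76 by edgeR. Without CPT replicate 1 or 2 the edgeR call was lost, with log2 differences of -1.93 and -1.74 and adjusted p of 0.0722 and 0.0708. The ratio of AT3 to CON was 0.0579 (0.0114 to 0.184), and all 3 AT3 counts came from AT3 replicate 2. Without that replicate AT3 had 0 counts, the upper bound of the 95% interval of the ratio was 0.116, and the fitted log2 difference of -6.89 depends on the prior count. These intervals cover counting error only. In untreated liver there were 0.754 to 0.907 counts of Cyp1a1 per 1000 of Cyp1a2, and Cyp1a1 made up 0.0576 ± 0.00494% of the summed TPM of the pair. In CPT that share was 0.558 ± 0.873% and rested on CPT replicate 3, at 1.56%.

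Ahr, the receptor gene, was modestly higher after cisplatin. It measured 6.91, 8.60 and 7.26 CPM in CON, 10.6, 10.9 and 8.92 in CPT, and 10.8, 11.6 and 8.67 in AT3. Every injured library lay above every control, the closest pair being 8.60 in CON and 8.67 in AT3. The log2 difference was 0.41 ± 0.14 between CPT and CON, a 1.33-fold rise (edgeR, adjusted p = 0.0185), and 0.44 ± 0.14 between AT3 and CON, 1.36-fold (adjusted p = 0.0118). Of all tested genes, 30.1% had a larger rise than Ahr from CON to CPT. The first call was lost without CON replicate 1, CON replicate 3 or CPT replicate 2 (edgeR adjusted p = 0.0727, 0.0540 and 0.0683), and the second without CON replicate 1 or AT3 replicate 2 (0.0516 and 0.0660).

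Arnt, the partner that AHR shares with hypoxia-inducible factors, was higher in both injured groups. Its level was 10.6, 10.7 and 10.8 CPM in CON, 15.2, 14.7 and 15.9 in CPT, and 17.7, 17.6 and 17.5 in AT3. These levels rest on 189 to 273 counts in a CON library and 489 to 563 in an AT3 library. At such counts, counting error alone is larger than the spread seen within CON and AT3. The closeness of those values is therefore no measure of precision. The 3 groups did not overlap at any point, and AT3 was the highest. The rise from CON was 1.43-fold in CPT (log2 0.51 ± 0.09, edgeR adjusted p = 0.000238) and 1.65-fold in AT3 (0.72 ± 0.09, adjusted p = 6.93e-06).

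Tiparp rose most of the 6 genes. It measured 2.98, 1.88 and 2.14 CPM in CON, 7.31, 8.44 and 5.57 in CPT, and 4.27, 5.30 and 5.37 in AT3. The CPT libraries were the highest, CON the lowest and AT3 between them, with no overlap on this scale. The mean went from 2.33 ± 0.573 CPM to 7.11 ± 1.44 in CPT, a 3.09-fold rise with a log2 difference of 1.63 ± 0.20 (edgeR, adjusted p = 5.53e-06). In AT3 the mean was 4.98 ± 0.619 CPM and the rise over CON 2.16-fold (log2 1.11 ± 0.21, adjusted p = 0.000247). A pseudogene on the opposite strand, 4931440P22Rik, overlaps the start of Tiparp, and it had 2 to 8 counts per library.

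Ahrr, the repressor that competes with AHR for ARNT, was not detected beyond single counts. It had 0, 1 and 1 counts in CON, 0 in each CPT library, and 0, 1 and 0 in AT3. It did not pass the low-count filter and was not tested. A count of 0 allows up to 3 counts, or 0.0934 to 0.169 CPM, so a change below that was not detectable at this depth.

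In the comparison of CPT with CON the calls were Ahr, Arnt and Tiparp as higher and Cyp1a2 as lower, besides Cyp1a1, whose call the filter largely set, where 60.8% of all tested genes were called, 30% higher and 30.8% lower. In CPM none of these genes overlapped between these groups, and 31.5% of all tested genes lay higher and 32.7% lower with no overlap. A share of this size means that a call by itself sets none of them apart from other genes. Between AT3 and CON the same genes were called in the same directions, where 64.4% of tested genes were called, 31.5% higher and 32.9% lower; again none overlapped, with 34.5% of tested genes higher and 35.9% lower with no overlap. The AT3 and CPT comparisons share the CON libraries.

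**Figure D2:**
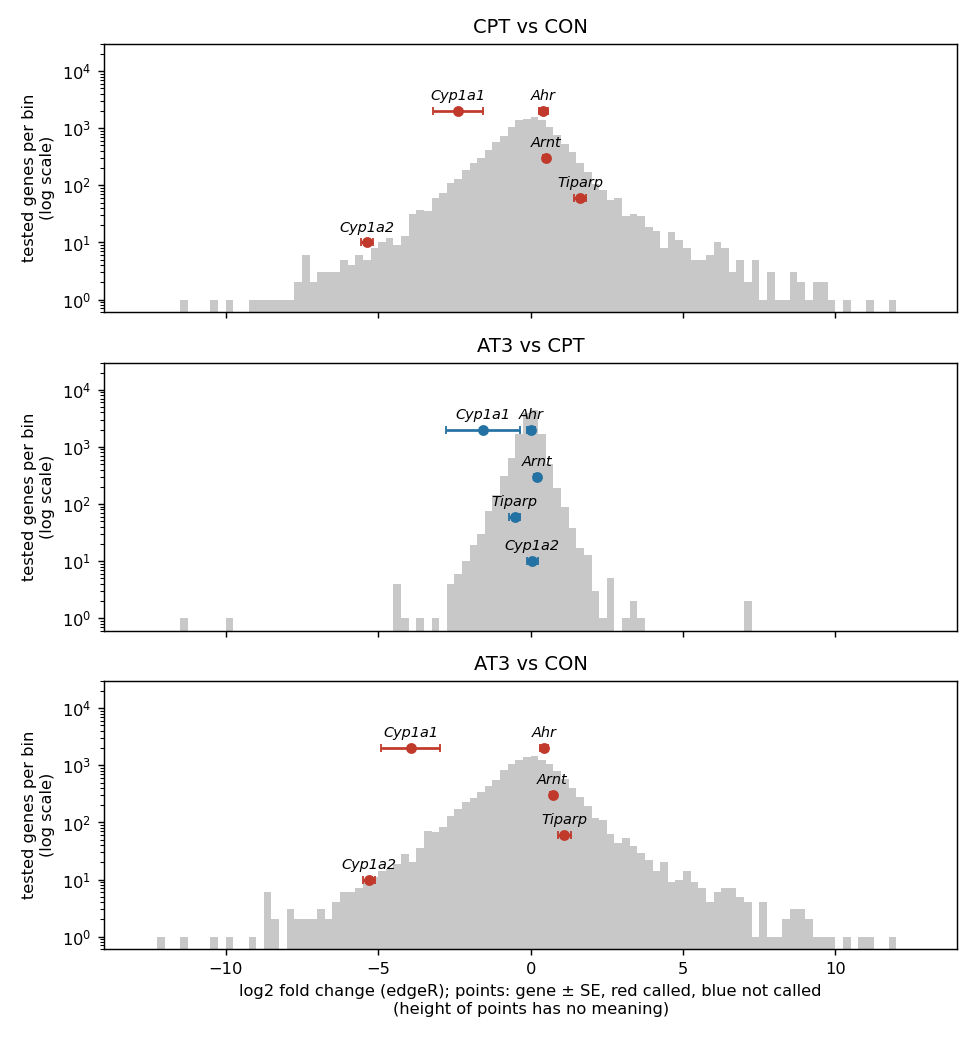
Number of tested genes (vertical axis, log scale) by log2 fold change in bins of 0.25 (horizontal axis) for the 3 comparisons, with the 5 tested genes as points ± SE, red where called and blue where not. Cyp1a2 at -5.36 and -5.30 lies in the far left tail of both comparisons with CON, and between AT3 and CPT the points other than Cyp1a1 (-1.56) lie between -0.52 and 0.21.

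Between the injured groups, 0 of the 5 tested genes were called by edgeR, where 4.68% of all tested genes were called, 2.46% higher and 2.22% lower; 2 of the 5, Arnt and Tiparp, had an unadjusted p under 0.05. DESeq2 and limma on the TPM scale also called 0, and DESeq2 gave Cyp1a1 no adjusted p. Cyp1a2 differed by 0.06 ± 0.17 on the log2 scale (95% interval -0.30 to 0.42, edgeR adjusted p = 0.892), and Ahr by 0.03 ± 0.13 (-0.26 to 0.31, adjusted p = 0.942). Cyp1a1, with 3 counts against 9, differed by -1.56 ± 1.22 (-4.15 to 1.04, adjusted p = 0.517), and its count ratio of 0.319 had an interval of 0.0556 to 1.28. Without CPT replicate 3 that ratio became 2.01 (0.161 to 105). Without AT3 replicate 2 it was 0 counts against 9, with an upper bound of 0.750.

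Arnt lay higher in all 3 AT3 libraries than in any CPT library, as did 14.5% of tested genes. Its log2 difference was 0.21 ± 0.09 (95% interval 0.02 to 0.40, edgeR adjusted p = 0.204). Tiparp lay lower in all 3 AT3 libraries in CPM, as did 12.5% of tested genes. Its log2 difference was -0.52 ± 0.18 (95% interval -0.90 to -0.14, edgeR adjusted p = 0.113). In TPM the Tiparp values of the injured groups overlapped, at 1.58, 2.0 and 1.33 in CPT and 1.06, 1.34 and 1.25 in AT3. Without CPT replicate 3 the Tiparp difference was -0.66 and was called (adjusted p = 0.0254).

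Per length, the order of the 6 genes was the same in the 3 groups. In mean TPM, Cyp1a2 was followed by Arnt (1.59 in CON, 3.45 in CPT, 4.19 in AT3), Ahr (0.877, 1.74 and 1.91), Tiparp (0.357, 1.64 and 1.22), Cyp1a1 (0.143, 0.0433 and 0.0133) and Ahrr (0.00667, 0 and 0.00333). Ahr and Tiparp overlapped in CPT, and Cyp1a1 and Ahrr overlapped in CPT and AT3; the other neighbours were separate in each group. From CON to CPT the ratio of mean TPM was 2.18 for Arnt, 1.98 for Ahr and 4.59 for Tiparp, each larger than the fold from edgeR. Within a library, the TPM of Cyp1a2 was 291 ± 51.4 times that of Ahr in CON, 5.21 ± 0.409 times in CPT and 5.51 ± 2.08 times in AT3. The ratio of Tiparp to Ahr was 0.424 ± 0.142 in CON, 0.934 ± 0.0976 in CPT and 0.649 ± 0.142 in AT3. These ratios do not depend on the scaling between libraries.

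No tested neighbour of the Cyp1a pair fell as far as Cyp1a2 did. Of 12 neighbours listed, 9 were tested, and between CPT and CON 2 were called higher and 3 lower. Over all tested genes, 30% were called higher and 30.8% lower. The median log2 difference of the neighbours was -0.36 beside -0.02 over all tested genes. On the TPM scale 4 neighbours were called higher and 0 lower. Csk, a kinase gene that is the nearest tested gene on the far side of Cyp1a2, fell from 53.0 ± 2.90 to 30.5 ± 2.38 CPM (log2 -0.80 ± 0.09), and was not called on the log2(TPM + 1) scale. Mpi, which encodes mannose phosphate isomerase, rose by a log2 difference of 1.11 ± 0.15, and Cox5a, a subunit of cytochrome c oxidase, by 1.99 ± 0.18.

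**Figure D3:**
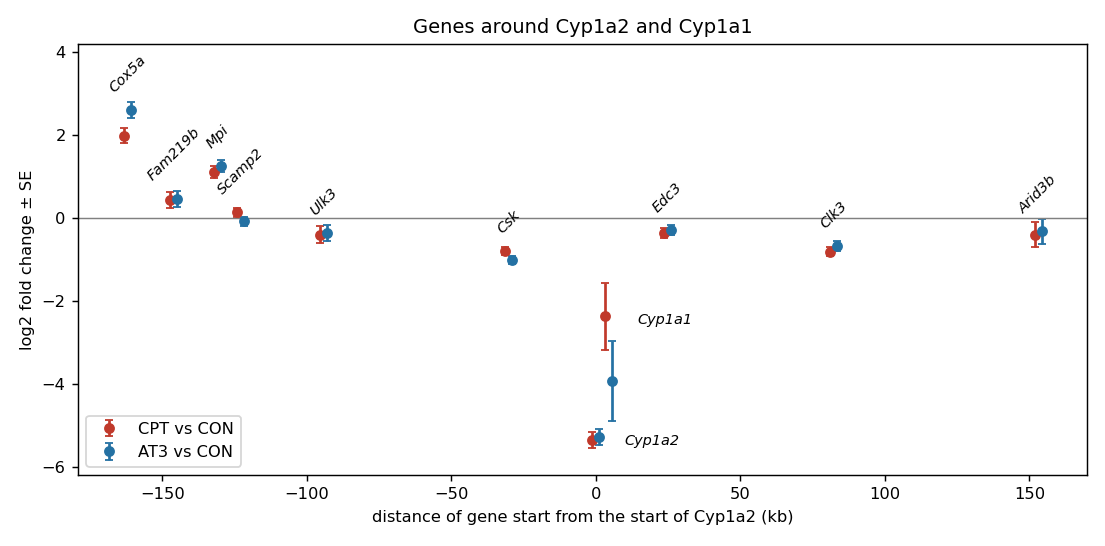
Log2 fold change ± SE (vertical axis) of the tested genes around Cyp1a2 against the distance of each annotated start from that of Cyp1a2 in kb (horizontal axis), for CPT (red) and AT3 (blue) against CON, drawn side by side. The Cyp1a pair at the centre lies between -5.36 and -2.38, while every other gene lies at -1.01 or above.

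The next lists follow the receptor from the cytosol to its targets. Their counts stand beside 30% of all tested genes called higher and 30.8% lower between CPT and CON by edgeR. On the TPM scale 6631 of 13686 tested genes were called higher and 1604 lower. A list with counts near these shares is not set apart from other genes. Of 7 genes of the cytosolic complex, 0 were called higher and 3 lower between CPT and CON, with a median of -0.24, but on the log2(TPM + 1) scale 3 were called higher and 0 lower. Hsp90aa1, the inducible HSP90, went from 92.4 ± 17.6 to 57.0 ± 11.2 CPM (log2 -0.70 ± 0.14), and was not called on the TPM scale.

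Of 15 nuclear partners and coregulators, 5 were called higher and 6 lower, with a median of -0.11; on the TPM scale 7 were higher and 1 lower. Ncoa4, a coactivator and ferritin receptor, rose from 78.0 ± 3.99 to 169 ± 15.2 CPM, and Klf6, a zinc finger factor that can partner AHR, from 2.61 ± 0.344 to 7.87 ± 1.59. Ncoa3 and Ep300, a coactivator and a histone acetyltransferase, fell by log2 1.03 and 0.88, and neither was called on the TPM scale.

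Of 21 other genes known to respond to AHR ligands, 15 were tested, 8 called higher and 2 lower, with a median of 0.42. Over all tested genes, 30% were called higher and 30.8% lower. On the TPM scale 12 of the list were higher and 2 lower, where 6631 of 13686 tested genes were higher and 1604 lower. Cd36, the fatty acid transporter, rose from 2.90 ± 0.485 to 19.4 ± 1.17 CPM (log2 2.72 ± 0.13). Nqo1, a quinone reductase chosen after its values were seen, rose by log2 1.57 ± 0.20, and Ugt1a6b, a glucuronosyltransferase whose exons are largely shared with other Ugt1a genes, by 1.10 ± 0.14. Cyp2a5, the coumarin hydroxylase, fell in the same direction as Cyp1a2, from 221 ± 26.7 to 65.0 ± 18.8 CPM (log2 -1.77 ± 0.17). The glutathione transferase gene Gsta2 also fell (-1.39 ± 0.18). Both have close paralogs that can share reads. Cyp1b1, the other dioxin-responsive P450 gene of its family, did not pass the filter, and Aldh3a1 had 0 counts in every library.

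**Figure D4:**
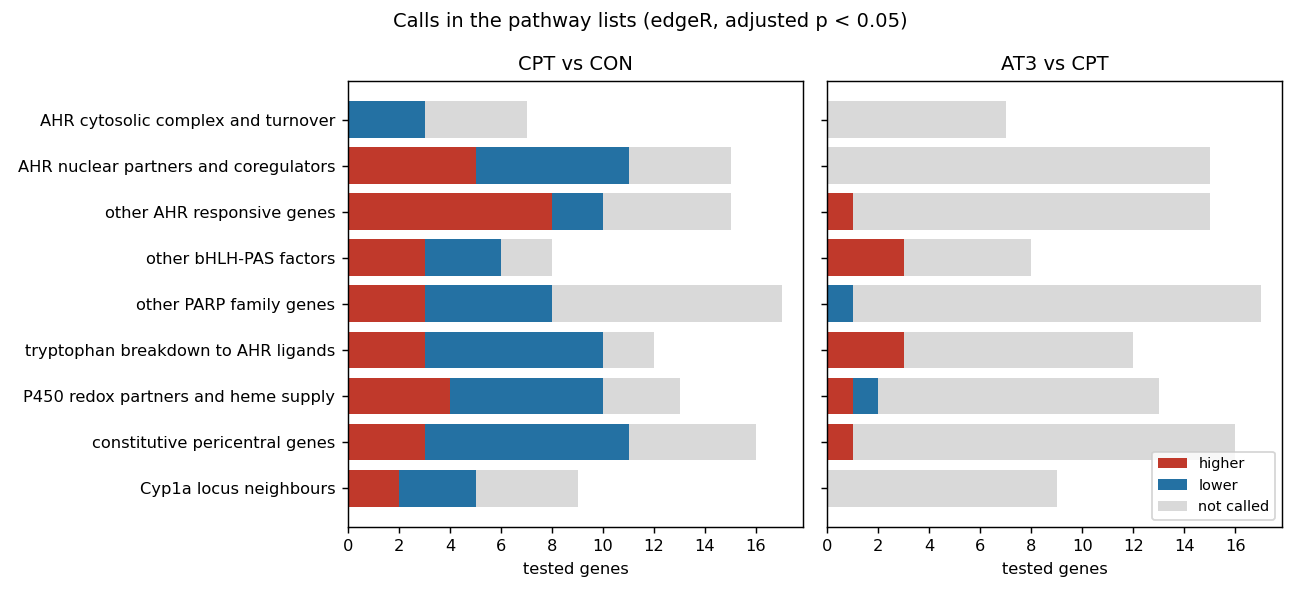
Number of tested genes (horizontal axis) called higher, lower or not called by edgeR in each pathway list, for CPT against CON and AT3 against CPT. In the first panel most lists hold both directions, with 8 of 15 other AHR responsive genes higher, where 60.8% of all tested genes were called. In the second panel no list has more than 3 genes called, where 4.68% of all tested genes were called.

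Relatives of AHR and ARNT that carry PAS domains were called in both directions. The list holds bHLH-PAS factors and also Per1, Per2 and Per3, which lack the DNA-binding bHLH domain. Of the higher calls between CPT and CON, only Epas1 is a bHLH-PAS factor, and all lower calls are. Of 16 in the table, 8 were tested, 3 called higher and 3 lower, with a median of 0.17; on the TPM scale 4 were higher and 2 lower. Npas2, a clock factor, fell from 4.85 ± 0.301 to 0.0571 ± 0.0167 CPM (log2 -6.28 ± 0.38); its CPT libraries lay under the level of 3 counts, so the fitted size rests on few counts, and it passed the filter only through CON. Arntl, which encodes BMAL1, fell from 5.69 ± 1.33 to 1.98 ± 0.595 CPM (-1.55 ± 0.22), and the clock gene Per1 rose from 5.71 ± 1.23 to 23.4 ± 2.80 (2.02 ± 0.14). Epas1, which encodes the hypoxia factor HIF2A, rose from 20.7 ± 1.63 to 69.0 ± 12.6 CPM (1.73 ± 0.12). The labels give no hour of collection, so the part of time of day in the clock genes was not tested.

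Of 17 tested genes of the PARP family to which Tiparp belongs and of the enzymes that remove ADP-ribose, 3 were called higher and 5 lower, with a median of 0.08; on the TPM scale 9 were higher and 1 lower. The 5 lower calls became 2 to 4 in every other edgeR or DESeq2 setting run, whichever library was left out, and all calls together numbered 5 without CPT replicate 2 or with only the 6 libraries compared. Parp16, a mono-ADP-ribosyltransferase of the endoplasmic reticulum, rose from 19.8 ± 1.68 to 59.6 ± 0.745 CPM (log2 1.59 ± 0.10), close to the rise of Tiparp. Macrod1, which removes mono-ADP-ribose, fell from 20.8 ± 1.52 to 2.05 ± 0.650 CPM in CPT (log2 -3.32 ± 0.18) and to 2.20 ± 0.363 in AT3. Parp9 rose by log2 0.89 ± 0.10, and Zc3hav1, the antiviral protein ZAP, was lower by 0.76 in the edgeR fit and not called on the TPM scale.

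Tryptophan breakdown yields kynurenine and other compounds that bind AHR. Of 12 tested genes of that list, 3 were called higher and 7 lower, with a median of -0.67 beside -0.02 over all genes; on the TPM scale 4 were called in each direction. Tdo2, the hepatic enzyme of the first step, chosen after its values were seen, rose from 230 ± 21.3 to 522 ± 111 CPM (log2 1.18 ± 0.14). Ido2, which encodes a related dioxygenase, fell from 49.6 ± 2.69 to 24.5 ± 2.14 CPM, and Kyat1, a kynurenine aminotransferase, from 64.0 ± 2.36 to 27.0 ± 3.34. Aox3, an aldehyde oxidase, fell from 168 ± 10.1 to 25.5 ± 3.67 CPM (-2.72 ± 0.11).

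Cytochrome P450 proteins need electrons and heme. Of 13 genes for their redox partners and heme synthesis, 4 were called higher and 6 lower, with a median of -0.16; on the TPM scale 6 were higher and 3 lower. Por, the reductase that serves CYP1A2 and other microsomal P450 enzymes, rose from 51.5 ± 6.60 to 284 ± 52.7 CPM (log2 2.46 ± 0.14), opposite to Cyp1a2. Cyb5r3, the cytochrome b5 reductase, fell from 352 ± 9.73 to 176 ± 8.25 CPM, and the heme synthesis genes Alad and Ppox fell by log2 1.02 and 1.27, of which Ppox was not called on the TPM scale.

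Cyp1a2 belongs to the genes expressed near the central vein, and that group held calls in both directions. Of 16 such genes, 3 were called higher and 8 lower, with a median of -0.25; on the TPM scale 5 were higher and 2 lower. Cyp2e1, the ethanol-metabolizing P450 of the same zone, chosen after its values were seen, was 3538 ± 471 CPM in CON and 3586 ± 687 in CPT (log2 0.02 ± 0.14, edgeR adjusted p = 0.914). Oat and Rhbg, for ornithine aminotransferase and an ammonium transporter, rose by log2 1.01 and 1.25. Lgr5, Tbx3, Axin2 and Glul of the same list, named after their values were seen, were called lower. With 1 library left out, their log2 differences were -3.00 to -1.89, -1.07 to -0.75, -0.87 to -0.64 and -0.57 to -0.31. Glul lost its call in 3 of those fits. Cyp2c29, which has close paralogs, fell from 150 ± 28 to 20.4 ± 3.01 CPM (-2.88 ± 0.14), and Nr1i3, which encodes the receptor CAR, from 210 ± 17.2 to 90.4 ± 7.26 (-1.21 ± 0.11), not called on the TPM scale.

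Between AT3 and CPT, 11 of the 112 tested genes of these lists were called by edgeR, 9 higher and 2 lower, where 4.68% of all tested genes were called, 2.46% higher and 2.22% lower. Arntl rose from 1.98 ± 0.595 to 6.57 ± 0.568 CPM (log2 1.74 ± 0.21, adjusted p = 0.000597), and Cyp2c29 from 20.4 ± 3.01 to 35.8 ± 1.42 CPM (0.81 ± 0.14, adjusted p = 0.00409). Both were called whichever library was left out. Of the 11, only Arntl was called on the TPM scale. The other 9 each lost their call in 2 to 6 of the 9 fits that left out a library, all of them without AT3 replicate 1, and the other libraries concerned were CON replicate 1, CPT replicates 1 and 2 and AT3 replicates 2 and 3. Of these 9, Fgf21, Epas1, Clock, Tdo2, Afmid, Aadat and Por were higher by log2 0.40 to 0.80, and Parp10 and Alad lower by 0.46 and 0.49. Clock and Tdo2 lie outside the rule for named genes and were named after their values were seen.

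Over the 9 libraries, the genes most like each of the 5 were found by Pearson's r of log2 CPM among 5236 genes with at least 10 CPM on average. This is a description with no test, since the groups set most of it. Cyp1a2 was most like Car3 (r = 0.999), Hsd17b2 (0.998) and Selenbp2 (0.997), which are abundant genes of untreated liver: Car3, a carbonic anhydrase, went from 1711 ± 111 CPM in CON to 16.4 ± 6.11 in CPT and 15.2 ± 5.14 in AT3. Arnt was most like Isca1 (0.999), Aass (0.998) and Got1 (0.997), Tiparp like Azi2 (0.989), Mettl6 (0.982) and Tbccd1 (0.976), and Ahr like Oxr1 (0.947), Ccnl1 (0.945) and Polr2k (0.940). Cyp1a1 was most like Plvap (0.967), Bgn (0.955) and Tk2 (0.948). It had at most 15 counts in a library and at most 8 in an injured one. Its profile therefore rests largely on the floor and the prior count, and nothing is drawn from these likenesses. Of the 5236 genes, 1542 had r above 0.9 with Arnt, 858 with Cyp1a2, 273 with Tiparp, 27 with Cyp1a1 and 13 with Ahr.

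Markers of other liver cells moved beside these results, where 30% of all tested genes were called higher and 30.8% lower between CPT and CON. Of 10 markers of sinusoidal endothelium, 8 were called lower and 0 higher between CPT and CON, and their summed level was 145 to 149 CPM in CON against 26.1 to 34.8 in CPT and 29.7 to 36.7 in AT3. All 10 genes of the stellate cell and fibroblast list were called lower, with sums of 354 to 425 CPM in CON against 71.8 to 82.2 in CPT. The erythroid list summed to 798 to 908 against 42.7 to 50.9, with 5 genes called lower and 2 not tested. Most of its sum in CPT was Alas2, at a mean of 42.4 CPM against 85.9 in CON. The globin genes fell further, Hba-a2 from 338 to 0.940 CPM and Hbb-bs from 159 to 1.76. In AT3 these were 1.72 and 2.50 CPM. Kupffer cell markers summed to 43.8 to 58.1 CPM in CON and 22.9 to 30.0 in CPT, with 6 of 10 lower and 1 higher, and cholangiocyte markers to 28.6 to 36.9 and 26.5 to 30.8, with Cftr at 0 throughout. Neutrophil markers summed to 4.08 to 5.28 CPM in CON, 24.1 to 50.2 in CPT but only 12.1 to 13.5 in AT3. Of these 10 markers, 4 were called higher and 0 lower between CPT and CON, 1 was not called and 5 were not tested. The largest parts of the neutrophil sum in CPT were S100a9 and S100a8, with means of 15.2 and 8.71 CPM. Lymphocyte markers summed to at most 4.27 CPM in any library. The part of these other cells in the levels of Ahr, Arnt, Tiparp and Cyp1a1 was not tested. For Cyp1a2, a hepatocyte gene, the summed hepatocyte markers of CON and CPT overlapped, with 3 called higher and 3 lower. Alb, with means of 38558 CPM in CON and 37177 in CPT, was the largest part of that sum. The part of hepatocyte number in the level of Cyp1a2 was not tested.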

How the data were processed

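RNA from 9 liver libraries was measured by RNA-seq after column purification, with SMARTer mRNA libraries, per the labels' protocols. The authors deposited estimated counts per gene with gene symbols and lengths, and a table of TPM values. GRCm38, mm10 and GRCm39 appear without a role in the submitters' processing notes; no source used here names the aligner, the counter or a strand setting. Between 7.96% and 9.55% of the deposited estimated counts in a library were not whole, so they were rounded. The deposited group means were not used.

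The 6 genes and all lists were chosen with earlier results of these data known. edgeR 4.0.16 (R 4.3.3) was fitted to all 9 libraries with TMM scaling, its low-count filter by group, quasi-likelihood tests and Benjamini-Hochberg adjustment over 13686 genes. The 3 CON libraries had TMM factors between 0.726 and 0.963, and the other libraries between 1.05 and 1.13. On simulated counts, the steps recovered 41.8%, 83.6% and 97% of genes changed 1.5, 2 and 4 times between CPT and CON (13178 genes), and 50.7%, 74.6% and 98.5% between AT3 and CPT (13003 genes). Only 66 or 67 genes were changed at each fold, none of them with low counts, and all others were left unchanged. In the data 60.8% of genes were called between CPT and CON, so these rates need not hold there or for Cyp1a1 and Ahrr. Alternatives were DESeq2 1.42.0, its size factors in edgeR, no filter, limma 3.58.1 on log2(TPM + 1) and log2(TPM + 0.1), only the 6 libraries compared, a replicate block, no mitochondrial or 10 most abundant genes, and each library left out. No replicate pair agreed within sampling noise (chi-square per degree of freedom at least 7.45). Of the identifiers, 91.3% were found in GENCODE M21 and 98.1% of the tested genes were. Identity within the Cyp1a pair is that of the longest open reading frames in GENCODE transcripts, aligned with Biopython. Named genes were the 6 genes, the 4 of each list with the smallest edgeR p between CPT and CON and the 2 between AT3 and CPT, the 3 most similar genes per tested gene, and the nearest tested gene on each side. From these, those the text describes are printed; some results are not reported here.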

Additional observations from a re-analysis of the deposited data

How the results depend on the processing

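The directions of Cyp1a2, Arnt, Ahr and Tiparp against CON, and the calls of Cyp1a2, Arnt and Tiparp, were the same in all alternatives run. Leaving out 1 library at a time gave log2 differences of 0.35 to 0.52 for Ahr and -4.76 to -1.74 for Cyp1a1 between CPT and CON, of 0.35 to 0.55 for Ahr between AT3 and CON, and of -0.66 to -0.37 for Tiparp between AT3 and CPT. With no low-count filter the last was -0.52 and was called (edgeR adjusted p = 0.0397). The genes called between AT3 and CPT numbered 641, 1174 with no filter, 45 on log2(TPM + 1), 32 on log2(TPM + 0.1) and 178 to 1341 with 1 library left out. No replicate pairing is given by the labels, and same-numbered libraries had correlations of -0.0378 to 0.0762, and not every library correlated best with its own number. With the replicate block, 8154 genes were called between CPT and CON, 451 between AT3 and CPT and 8648 between AT3 and CON. Of the results printed, the block ended the calls of Clock and Por between AT3 and CPT (edgeR adjusted p = 0.0671 and 0.0734). Depth limits Cyp1a1 and Ahrr, which had at most 15 counts and 1 count in a library.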
